A study of Mus musculus with 32 samples.

Results

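*Cyp1b1* and the other genes of the aryl hydrocarbon receptor (AHR) pathway were examined in RNA sequenced from sorted mouse lung tumor cells. The 7 genes, *Ahr*, *Arnt*, *Ahrr*, *Tiparp*, *Cyp1a1*, *Cyp1a2* and *Cyp1b1*, were taken by symbol from the 53558 genes in the quantification files, and all 7 were found. They were chosen by the measured level of *Cyp1b1*, which is low in both groups carrying the *Lkb1XTR* allele when set against tumors with wild-type *Lkb1*, together with the receptor and its best known partners and targets. Levels of the 7 genes in those contrasts are therefore description. The first question is at what level the receptor, its partner and its other targets stand in the same tumors. The second is how *Cyp1b1* differs in contrasts other than those used to choose it, some of which share the libraries where it was chosen as low.

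All 32 libraries came from tumors that lentiviral Cre started in mice of a mixed background whose shared alleles include a Cre-activated tdTomato reporter in *Rosa26*. *KT* tumors carried only the shared alleles, were left untreated and kept wild-type *Lkb1* (4 libraries, 2 female and 2 male). Non-restored tumors were *Lkb1XTR/XTR*, an allele derived from a single targeted embryonic stem cell clone in which Cre turns on a gene trap inside *Lkb1* (10 libraries, 7 female and 3 male). In 4 of these the mice lacked FLPo-ERT2 and received tamoxifen, and in 6 they carried FLPo-ERT2 and received vehicle, so treatment and recombinase cannot be told apart within this group. Restored tumors were *Lkb1XTR/XTR* with *Rosa26* FLPo-ERT2, a recombinase that removes the trap once tamoxifen is given, and had 2 weeks of 4 mg tamoxifen doses (7 libraries). Tumors with *Trp53 flox/flox* in addition were non-restored (7 libraries from 4 animals by their titles, 5 with FLPo-ERT2 and vehicle and 2 without FLPo-ERT2 and with tamoxifen) or restored (4 libraries). *Trp53* wild-type tumors were collected 24 to 27 weeks and *Trp53*-deficient tumors 16 to 19 weeks after initiation, so *Trp53* status and time cannot be told apart. Every restored library, in both *Trp53* backgrounds, was from a female mouse. *KT* mice also received less virus than *Lkb1XTR* mice, so *Lkb1* status, treatment and virus dose differ together in any comparison with *KT*.

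AHR is a transcription factor held in the cytosol by chaperones until it binds a ligand, such as a combustion product or a derivative of tryptophan. It then enters the nucleus, pairs with ARNT and binds DNA at a short core, GCGTG, near genes of drug-metabolising enzymes. *Cyp1a1*, *Cyp1a2* and *Cyp1b1* are its best known targets and encode P450 monooxygenases that oxidise polycyclic aromatic hydrocarbons and, in the case of *Cyp1b1*, estrogens. *Ahrr* and *Tiparp* are targets that close a feedback loop, the first as a repressor that competes for ARNT and the second as a mono-ADP-ribosyltransferase that dampens AHR. In the lung, *Cyp1a1* is known for its strong induction by inhaled ligands, whereas *Cyp1b1* is also expressed in fibroblasts and other mesenchymal cells.

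The promoter windows are shown because exact matches to the core bound by AHR with ARNT can be read in them. Binding was not measured. The RefSeq table (GRCm38.p6) gives 250 bases before and 50 bases after each transcription start, written 5′ to 3′ on the gene's strand. Of the 7 genes, 6 had a window, all but *Ahr*. Those of *Arnt* and *Cyp1a2* are not printed, and bases outside the windows were not searched. Capitals mark each GCGTG or its reverse complement CACGC.

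Cyp1b1, chr17:79715012-79715311 on the minus strand: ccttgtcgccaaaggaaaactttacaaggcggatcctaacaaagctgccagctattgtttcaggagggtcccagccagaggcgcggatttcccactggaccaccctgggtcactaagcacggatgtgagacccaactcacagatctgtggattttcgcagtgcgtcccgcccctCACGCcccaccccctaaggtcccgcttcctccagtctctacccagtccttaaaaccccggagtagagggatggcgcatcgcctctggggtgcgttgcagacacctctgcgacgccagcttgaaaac
Tiparp, chr3:65528197-65528496 on the plus strand: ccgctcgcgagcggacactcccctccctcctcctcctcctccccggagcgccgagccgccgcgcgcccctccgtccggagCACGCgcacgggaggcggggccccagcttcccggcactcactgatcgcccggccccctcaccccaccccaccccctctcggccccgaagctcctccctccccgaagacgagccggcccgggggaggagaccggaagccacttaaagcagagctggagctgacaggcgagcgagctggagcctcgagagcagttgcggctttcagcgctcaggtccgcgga
Ahrr, chr13:74292282-74292581 on the minus strand: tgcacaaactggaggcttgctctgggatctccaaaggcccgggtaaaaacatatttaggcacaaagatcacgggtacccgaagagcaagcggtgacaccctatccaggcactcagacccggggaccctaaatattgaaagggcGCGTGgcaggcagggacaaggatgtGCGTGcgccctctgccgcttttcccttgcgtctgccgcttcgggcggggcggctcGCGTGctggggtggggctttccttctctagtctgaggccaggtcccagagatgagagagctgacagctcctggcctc
Cyp1a1, chr9:57697363-57697662 on the plus strand: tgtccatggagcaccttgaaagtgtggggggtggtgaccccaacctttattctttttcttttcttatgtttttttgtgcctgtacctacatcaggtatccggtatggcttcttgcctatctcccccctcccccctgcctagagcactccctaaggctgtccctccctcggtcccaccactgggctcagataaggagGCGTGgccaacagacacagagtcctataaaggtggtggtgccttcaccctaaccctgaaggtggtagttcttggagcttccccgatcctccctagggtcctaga

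The core was present on either strand in 5 of the 6 windows, with *Cyp1a2* the exception, against 32.4% of all 32851 windows of the same length. *Ahrr* had 3 matches, *Cyp1b1*, *Tiparp*, *Cyp1a1* and *Arnt* had 1 each, and 3.91% of all windows had 3 or more. In *Cyp1b1* the match began 76 bases before the start. The longer form TNGCGTG, which contains the core, was found in 1 of the 6 windows, that of *Ahrr*, and in 5.07% of all windows.

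*Stk11*, the gene that encodes LKB1, was measured first as a check of the labels. In CPM (counts scaled to a common library total by TMM) it ranged from 16.6 to 27.3 in *KT*, from 0 to 1.07 in non-restored and from 11.6 to 22.4 in restored tumors, and from 0 to 0.772 and 8.5 to 14.9 in the *Trp53*-deficient pair, so every library followed its label. The libraries were shallow, with 1302482 to 5943951 expected counts. The 8 alveolar and epithelial markers of the tumor cells (*Sftpc*, *Nkx2-1* and *Epcam* among them) were detected in all 5 groups, with a summed level of 7380 to 83200 CPM. Immune markers summed to at most 136 CPM, with *Cd3e* and *S100a9* among those at 0 in *KT* and restored tumors, and red cell markers to at most 6.97 CPM, whereas airway markers reached 13000 CPM in *Trp53*-deficient non-restored replicate 7 and 6620 CPM in non-restored replicate 8, which also had the lowest sum of alveolar markers. A single gene, the mucin *Muc5b*, gave 12900 and 6600 CPM of these sums. Without non-restored replicate 8 the log2 difference of *Cyp1b1* given below for restored against non-restored tumors was 1.11 in place of 1.04.

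*Cyp1b1* (chromosome 17, 79701537 to 79715061, minus strand, GRCm38) had the widest range of the 4 expressed members, 309-fold over the 32 libraries. It was chosen for a difference between groups, so this width is description. In the *KT* tumors it stood at 166, 19.1, 53.7 and 64.3 CPM in replicates 1 to 4, a mean of 75.7 ± 63.0 (SD, n = 4). In non-restored tumors the lowest, median and highest of 10 libraries were 0.536, 1.93 and 10.4 CPM, with a mean of 2.81 ± 2.95. In restored tumors they were 2.68, 4.91 and 9.7 CPM, with a mean of 5.87 ± 2.52 (n = 7). All 4 *KT* libraries lay above every *Trp53* wild-type *Lkb1XTR* library, restored or not, and the restored libraries lay inside the upper part of the non-restored range.

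In *Trp53*-deficient non-restored tumors *Cyp1b1* was at 3.97, 12.4, 16.7 and 12.8 CPM in the 4 animals, a mean of 11.5 ± 5.36. Libraries of the same animal were not alike, since the 3 libraries of the first animal gave 1.52, 1.64 and 8.88 CPM and both libraries of the second gave 5.55 and 20.9 CPM. In *Trp53*-deficient restored tumors it was at 13.8, 20.8, 49.7 and 9.35 CPM, a mean of 23.4 ± 18.2. These values lay largely between those of *KT* and of the *Trp53* wild-type *Lkb1XTR* groups, with 3 of 4 *KT* libraries above the highest *Trp53*-deficient restored library and all 4 above each *Trp53*-deficient non-restored animal.

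**Figure D1:**
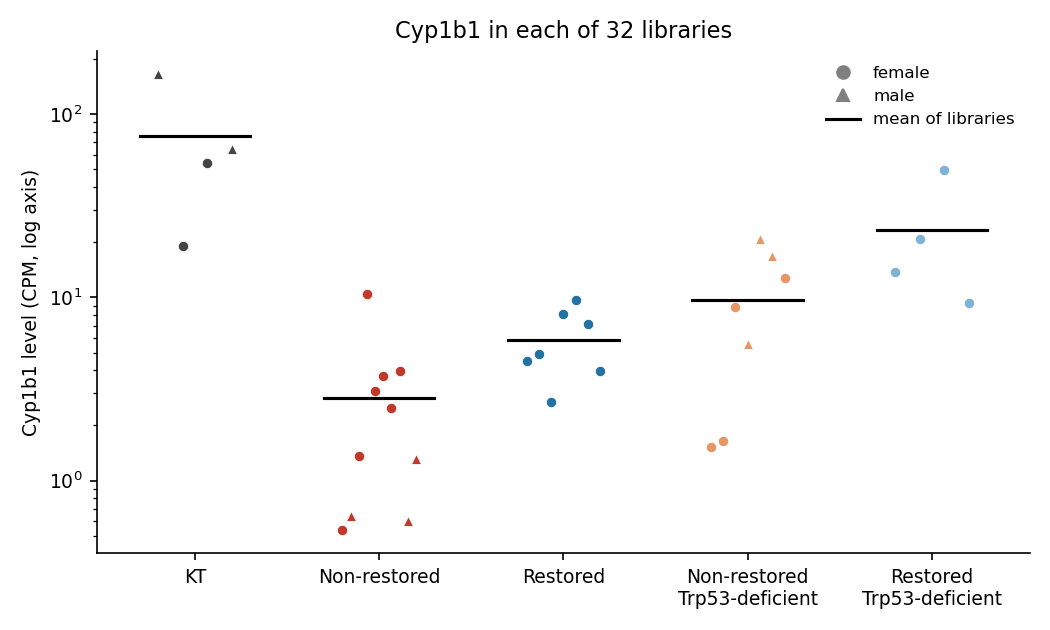
*Cyp1b1* level in CPM on a log axis for each of the 32 libraries in 5 groups, with circles for female and triangles for male mice and a bar at the mean of the libraries. *KT* libraries span 19.1 to 166 CPM and non-restored libraries 0.536 to 10.4 CPM, and the means of the *Trp53*-deficient groups lie in between.

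The order of the group means was *KT*, *Trp53*-deficient restored, *Trp53*-deficient non-restored, restored and non-restored. The *KT* mean was 27.0-fold that of non-restored and 12.9-fold that of restored tumors. The fitted log2 difference was -4.70 (SE 0.53) for non-restored against *KT* and -3.66 (SE 0.56) for restored against *KT*. These are the differences by which the gene set was chosen, so no test is attached to them. In bulk RNA, fewer cells that make *Cyp1b1* and less *Cyp1b1* RNA per cell cannot be told apart. *KT* replicate 1 set much of the size, since without it the *KT* mean was 16.3-fold that of non-restored and 7.79-fold that of restored tumors. The spread within *KT* was 8.68-fold from the lowest library to the highest, wider than the 3.62-fold spread among restored libraries.

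Sex did not sort *Cyp1b1* the same way in each group. The female *KT* libraries (19.1 and 53.7 CPM) were below the male ones (64.3 and 166 CPM), while in non-restored tumors the 3 male libraries (0.601 to 1.31 CPM) were at the low end of the female range (0.536 to 10.4 CPM). With female libraries alone the fitted log2 difference was -3.32 (SE 0.57) for non-restored against *KT* and -2.62 (SE 0.57) for restored against *KT*.

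After 2 weeks of restoration *Cyp1b1* was still below the *KT* range in all 7 libraries. The restored mean was 2.09-fold the non-restored mean, and 6 of 7 restored libraries were above that mean but none was above the highest non-restored library. In the fit the log2 difference was 1.04 (SE 0.50), which did not pass edgeR's quasi-likelihood test after adjustment over 12636 genes (p = 0.0506, adjusted p = 0.332). An exact two-sided permutation test of the single gene, on log2 CPM, gave a difference of 1.22 with p = 0.016, or 0.0267 adjusted over the 5 comparisons tested this way. The permutation tests were added after the values had been seen. They treat *Trp53* wild-type libraries as independent, although the study counts fewer mice than libraries in the restored and non-restored groups. Their p-values may therefore not measure spread between mice. With female libraries alone, 7 against 7, the permutation difference was 0.83 with exact p = 0.0868. Against the 6 vehicle controls alone it was 1.02 with exact p = 0.0711, and against the 4 tamoxifen controls alone 1.53 with exact p = 0.0121. Of the 4 members that could be tested, 0 were called by edgeR or DESeq2, beside 1.87% of all genes called by edgeR. At an unadjusted p under 0.05 in edgeR there were 0 of the 4 members, beside 1913 of 12636 genes.

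In the *Trp53*-deficient tumors the same contrast had nearly the same size and a wide error. The restored mean was 2.03-fold the mean of the non-restored animals, with 2 of 4 restored libraries above the highest of those animals. The log2 difference was 1.03 (SE 0.58, adjusted p = 0.804), and the exact permutation test gave p = 0.286, where 4 against 4 allows no p below 0.0286. It fell to 0.38 when *Trp53*-deficient restored replicate 3, the library at 49.7 CPM, was left out. Of the 4 members tested 0 were called by either tool, beside 0% of the 12516 genes tested with edgeR, among which 748 had an unadjusted p under 0.05 and DESeq2 called 23. The difference between the restoration effects of the *Trp53* backgrounds was -0.04 for *Cyp1b1* (SE 0.67, 95% interval -1.35 to 1.28). That interaction test called 0 genes in edgeR and 0 in DESeq2 (0% of 13706, with 422 at an unadjusted p under 0.05 in edgeR).

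Mean *Cyp1b1* was higher in *Trp53*-deficient than in *Trp53* wild-type tumors at both states of *Lkb1*, by tests that did not all pass. The *Trp53* wild-type libraries in both comparisons are those in which *Cyp1b1* was chosen as low. The p-values by *Trp53* are therefore not independent of that choice. In non-restored tumors the mean of the animals was 4.08-fold that of the *Trp53* wild-type libraries, with 3 of 4 animals above the highest of 10 *Trp53* wild-type libraries. The log2 difference was 1.98 (SE 0.53), with an adjusted p of 0.0707 in edgeR, which missed the threshold, and of 0.0216 in DESeq2. Without non-restored replicate 4, the highest of its group, the difference was 2.44 with adjusted p = 0.0101, and without replicate 8 it was 2.04 with adjusted p = 0.0236. The exact permutation test gave p = 0.004, or 0.02 adjusted over 5 tests, and p = 0.111 with female libraries alone, 2 animals against 7 libraries.

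In restored tumors, all female, the *Trp53*-deficient mean was 3.94-fold the *Trp53* wild-type mean and 3 of 4 libraries were above the highest of the 7 *Trp53* wild-type libraries. Fitted over all genes, the log2 difference was 1.95 (SE 0.55, adjusted p = 0.111 in edgeR and 0.045 in DESeq2). The exact permutation test gave p = 0.0121, or 0.0267 adjusted over 5 tests. Without *Trp53*-deficient restored replicate 3 the fitted difference was 1.29 and edgeR's adjusted p was 0.373. Of the 4 members, edgeR called 0 in the non-restored pair, where 3 had an unadjusted p under 0.05, and 0 in the restored pair, where 1 had, beside 0.584% and 0.372% of 13706 genes. Of all these genes 2430 and 2121 had an unadjusted p under 0.05 in the same comparisons. DESeq2 called 1 in each, *Cyp1b1*. Within the non-restored group the control arms differed by less than their spread, with 1.92 ± 1.62 CPM in 4 tamoxifen and 3.4 ± 3.61 CPM in 6 vehicle libraries (fitted log2 difference -0.77, SE 0.72, exact permutation p = 0.514). For that contrast 0 of 4 members and 0.00791% of genes were called, and 0 members had an unadjusted p under 0.05, beside 582 of 12636 genes.

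**Figure D2:**
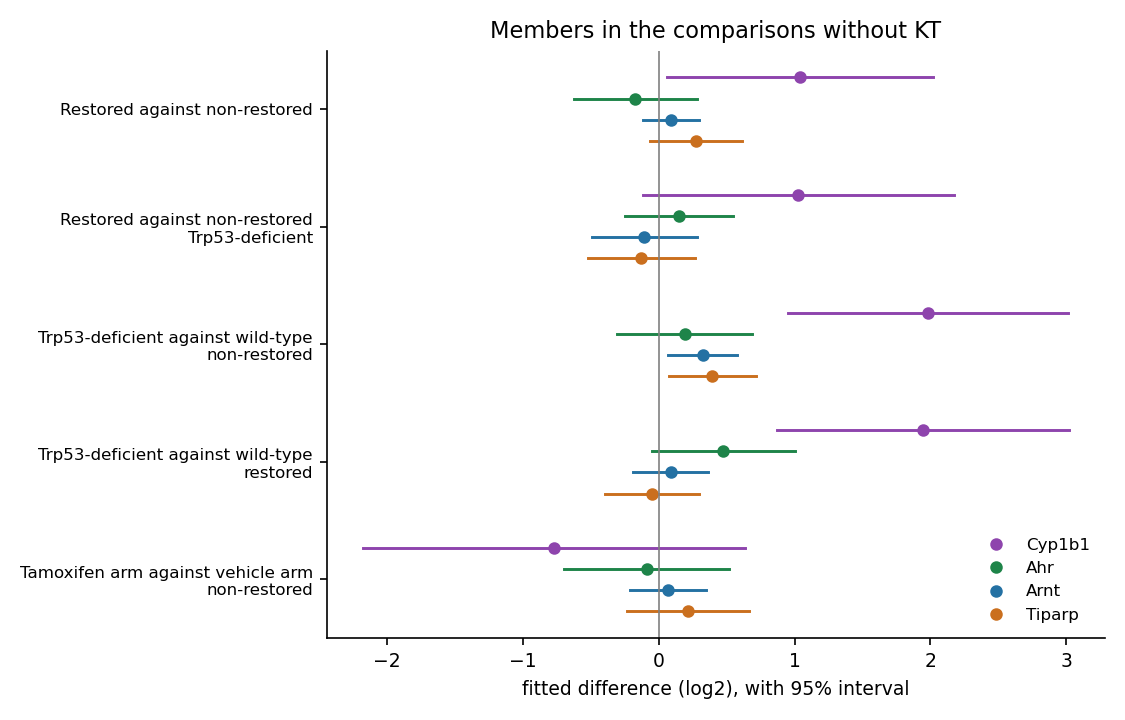
Fitted log2 differences of the 4 tested members in 5 of the 6 comparisons that do not involve *KT* (the difference of the restoration effect between *Trp53* backgrounds is not drawn), with bars for the 95% interval. *Cyp1b1* is displaced to the right in both *Trp53* comparisons (1.98 and 1.95), while *Ahr*, *Arnt* and *Tiparp* all lie between -0.17 and 0.47.

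The receptor itself was present at similar levels in all groups. *Ahr* (chromosome 12, 35497974 to 35535038, minus strand) stood at 135, 74.7, 96.8 and 73.9 CPM in the *KT* libraries. In non-restored tumors its lowest, median and highest values were 53.5, 91.9 and 190 CPM, and in restored tumors 74.6, 82.9 and 128 CPM. In *Trp53*-deficient tumors it was at 118, 101, 155 and 108 CPM in the non-restored animals and at 107, 181, 130 and 110 CPM in the restored libraries. The 5 groups overlapped, with means from 94.2 ± 22.4 CPM in restored to 132 ± 34.4 CPM in *Trp53*-deficient restored tumors. Between restored and non-restored tumors the log2 difference was -0.17 (SE 0.23, adjusted p = 0.795). The largest *Ahr* difference among the comparisons without *KT* was 0.47 (SE 0.27, adjusted p = 0.394), for *Trp53*-deficient against wild-type restored tumors. Against *KT*, the fitted differences were 0.16 (SE 0.28) for non-restored and -0.01 (SE 0.30) for restored tumors.

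*Arnt* (chromosome 3, 95434388 to 95497240, plus strand), the obligate partner, had the narrowest range over all libraries among the 4 expressed members. It stood at 79.4, 56.4, 65.1 and 53.7 CPM in *KT*, and its means ran from 55.9 ± 6.36 CPM in non-restored to 68.5 ± 14.9 CPM in *Trp53*-deficient non-restored libraries. From the lowest to the highest of the 32 libraries the range was 2.19-fold, against 3.55-fold for *Ahr*. Restored and non-restored tumors differed by 0.09 on the log2 scale (SE 0.11, adjusted p = 0.76), and no comparison without *KT* exceeded 0.32 (SE 0.13, adjusted p = 0.207, *Trp53*-deficient against wild-type non-restored). Reads of *Ahr* and *Arnt* could not be separated by strand from a long noncoding RNA and a pseudogene, respectively, that overlap them.

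*Tiparp* (chromosome 3, 65528410 to 65555518, plus strand), the feedback ADP-ribosyltransferase, was the highest member per length, with 60.0 ± 25.9 TPM in *KT* and 43.2 ± 10.1 TPM in non-restored tumors. Its *KT* values were split, with 226 and 201 CPM in the female and 110 and 86.4 CPM in the male libraries. Non-restored libraries lay at 77.0, 96.4 and 168 CPM (lowest, median, highest) and restored libraries at 102, 127 and 148 CPM. All 7 restored libraries were thus above the non-restored median, yet none was above its highest library. On the log2 scale the difference was 0.27 (SE 0.17, adjusted p = 0.487). Against *KT* it was -0.61 (SE 0.21) for non-restored and -0.33 (SE 0.22) for restored tumors, and -0.99 and -0.78 with female libraries alone. In *Trp53*-deficient tumors *Tiparp* was at 128, 105, 140 and 161 CPM in the non-restored animals and at 119, 161, 88.2 and 112 CPM in the restored libraries. The non-restored animals all lay above the *Trp53* wild-type non-restored mean, and the log2 difference by *Trp53* was 0.39 (SE 0.16, adjusted p = 0.216). Restoration in that background gave -0.13 (SE 0.20, adjusted p = 0.909), and the difference between backgrounds was -0.44 (SE 0.24, adjusted p = 1.0). *Tiparp* overlaps a pseudogene on the opposite strand.

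**Figure D3:**
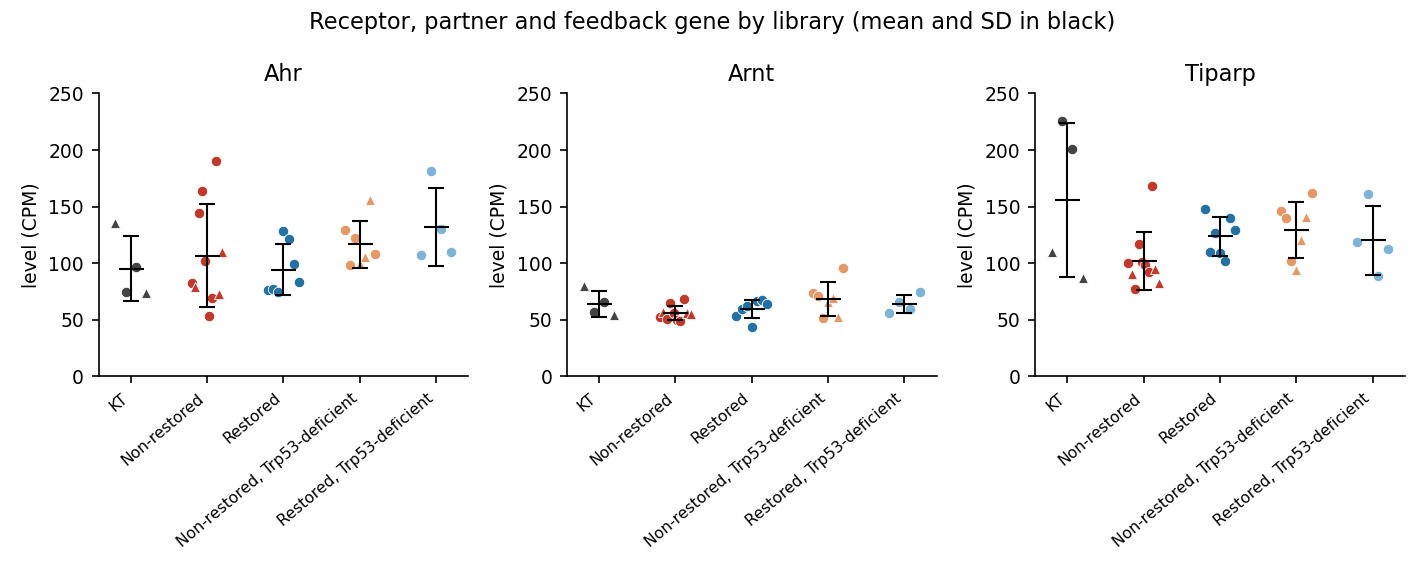
Level in CPM of *Ahr*, *Arnt* and *Tiparp* in each library by group, with circles for female and triangles for male mice and the mean and SD in black. The groups overlap in all 3 panels, and the 2 highest *Tiparp* values, 226 and 201 CPM, are the female *KT* libraries.

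The other classical targets were silent at this depth. *Cyp1a1* (chromosome 9, 57687928 to 57703824) and *Cyp1a2* (chromosome 9, 57676937 to 57683703) each had 1 count in 1 of 32 libraries. *Ahrr* (chromosome 13, 74211118 to 74292331) had 5 counts in all, spread over 4 libraries, with at most 2 in any of them. A count of 0 allows up to 3 counts, which corresponds to 0.516 to 2.49 CPM depending on the library and covers counting error only. In the *KT* libraries, where *Cyp1b1* was highest, all 3 genes were at 0. None of them passed the filter on low counts, so 4 of the 7 members entered the tests.

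In the contrasts against *KT*, which were used to choose the set, 1 of the 4 tested members was called in each, *Cyp1b1* in both cases, where 5.86% of all genes were called for non-restored and 0.459% for restored tumors. That call restates how the set was chosen, and nothing is read from it.

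Across libraries of a group, *Cyp1b1* and the receptor genes were compared in 6 relations, each of the 3 expressed members in the 10 non-restored and in the 7 restored libraries. *Ahr* in restored tumors had the closest relation, with Pearson's r of 0.895 (exact permutation p = 0.0103, adjusted 0.0618) and Spearman's rho of 0.857 (exact p = 0.0238, adjusted 0.143), and r of 0.798 without the 2 libraries farthest from the median of *Ahr*. On log2(TPM + 1) the same r was 0.787 with adjusted p = 0.31. The other 5 Pearson coefficients ran from -0.49 to 0.521, and none of the 6 relations passed after adjustment.

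Set against 94 P450 genes whose symbols hold a number, letters and a number, *Cyp1b1* changed place from group to group on the TPM scale, which allows for length. *Cyp51* has no such symbol and was not ranked. Its means were 45.3 CPM in non-restored and 30.5 CPM in restored tumors, so including it could change the ranks. Among the 94 genes *Cyp1b1* ranked 4 by mean TPM in *KT* (18.9 TPM), 15 in non-restored (0.786 TPM) and 13 in restored tumors (1.58 TPM). It ranked 12 in *Trp53*-deficient non-restored (2.64 TPM) and 11 in *Trp53*-deficient restored tumors (6.24 TPM). *Cyp2f2*, the airway and lung P450 that activates naphthalene, ranked 1 of the 94 in all 5 groups, at 66.5, 47.7, 127, 31.5 and 80.6 TPM. *Cyp39a1*, a sterol hydroxylase, ranked 2 of the 94 in *KT* at 33.0 TPM. Of the 94 genes 31 were at 0 in all libraries and 13 passed the filter. *Cyp2b10*, a xenobiotic P450, had medians of 2.59 CPM in restored and 0.842 CPM in non-restored tumors, with 0 in the lowest library of each (log2 difference 3.11, SE 0.93, adjusted p = 0.0972 in edgeR and 0.0294 in DESeq2).

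Among 14 other genes known as AHR targets, 10 were tested in the *Trp53* wild-type tumors. In restored against non-restored tumors 1 was called higher and 0 lower, beside 0.973% and 0.894% of all genes, with a median log2 difference of 0.554 over the 10 and -0.011 over all genes. The called gene was *Ugt1a6a*, a UDP-glucuronosyltransferase, which stood at 22.1, 34.9 and 57.5 CPM in non-restored and 44.3, 76.9 and 92.5 CPM in restored tumors (lowest, median, highest), a log2 difference of 0.92 (SE 0.20, adjusted p = 0.0152). Of the 7 restored libraries 5 were above every non-restored one. DESeq2 called *Ugt1a6a* and *Xdh* higher and *Ereg* lower in this comparison. Against the 4 tamoxifen controls alone the difference was 0.76 with adjusted p = 0.229. Genes of the *Ugt1a* cluster share their last exons, so reads may be divided between *Ugt1a6a* and its neighbours.

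In non-restored tumors against *KT*, 4 of the 10 were called lower and 0 higher, beside 3.48% and 2.38% of all genes, with a median of -0.071 over the 10 and 0.03 over all genes. *Ugt1a6a* fell by 1.23 (SE 0.23, adjusted p = 0.00262), *Socs2*, an inhibitor of cytokine signaling, by 1.08 (SE 0.23, adjusted p = 0.00783) and *Xdh*, xanthine dehydrogenase, by 1.22 (SE 0.32, adjusted p = 0.0258) on the log2 scale. The *Xdh* call was lost without *KT* replicate 1 (adjusted p = 0.148) or 3 (0.052). The fourth, *Ugt1a6b*, fell by 1.28 (SE 0.38, adjusted p = 0.0489) and kept its call in 7 of 27 alternative settings. *Socs2* was at 444 to 554 CPM in *KT*, 81.4 to 382 CPM in non-restored and 213 to 390 CPM in restored tumors. *Xdh* was at 82.4 to 138, 12.3 to 69.3 and 44.4 to 139 CPM in the same order. For *Ugt1a6a*, *Socs2* and *Xdh* all 10 non-restored libraries lay below all 4 *KT* libraries. The share of all genes with such a separation was not counted, so nothing particular to these genes is read from it. In restored tumors against *KT* 0 of the 10 were called by either tool, with *Socs2* having the smallest unadjusted p (log2 difference -0.60, SE 0.25, adjusted p = 0.401), although its 7 restored libraries also lay below the 4 *KT* libraries. With female libraries alone *Socs2* fell by 0.98 and *Xdh* by 1.23 in non-restored tumors, with adjusted p of 0.228 and 0.184.

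Enzymes that supply P450s with electrons or clear their products gave the most calls. Of 8 tested, restoration had 2 called higher and 0 lower against non-restored tumors, beside 0.973% and 0.894% of all genes, with a median log2 difference of 0.233 over the 8 and -0.011 over all genes. *Sult1a1*, a phenol sulfotransferase, was at 2.58 to 16.5 CPM in non-restored and 15.4 to 20.9 CPM in restored tumors, a log2 difference of 1.17 (SE 0.28, adjusted p = 0.0313), with 6 of 7 restored libraries above all non-restored ones. *Cyb5a*, cytochrome b5, was at 21.7 to 79.3 and 84.3 to 129 CPM in the same order (log2 difference 0.89, SE 0.22, adjusted p = 0.0342). Against the 4 tamoxifen controls alone the adjusted p was 0.303 for *Sult1a1* and 0.23 for *Cyb5a*. Both calls also lay near the threshold when 1 library was left out. For *Sult1a1* the call was lost in 9 of 21 such fits (adjusted p up to 0.0644), those without restored replicates 1, 2, 4, 6 or 7 or non-restored replicates 3, 4, 9 or 10. For *Cyb5a* it was lost in 7 of 21 (up to 0.0742), those without restored replicates 1, 2, 3, 4, 5 or 7 or non-restored replicate 5. In non-restored tumors against *KT*, *Sult1a1* fell by 1.97 (SE 0.32, adjusted p = 0.000695) and *Cyb5r3*, cytochrome b5 reductase, by 0.56 (SE 0.16, adjusted p = 0.0411), the 2 lower calls among the 8, where 3.48% of all genes were lower. The *Cyb5r3* call was kept in 15 of 27 alternative settings, with adjusted p of 0.145, 0.238 and 0.0658 without *KT* replicates 4, 1 and 3. *Cyb5r3* was lower still in restored tumors, at 125 to 179 CPM against 205 to 359 CPM in *KT* (log2 difference -0.96, SE 0.17, adjusted p = 0.0101), the 1 call among the 8 in that comparison, where 0.332% of all genes were lower. Without *KT* replicate 1 or 4 its adjusted p was 0.089 or 0.0611. With female libraries alone its fall from *KT* was 0.18 (adjusted p = 0.743) in non-restored and 0.64 (adjusted p = 0.425) in restored tumors.

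*Ephx1*, the microsomal epoxide hydrolase that acts on the epoxides made by P450s, separated the *Trp53* backgrounds. It was at 11.9 to 58.1 CPM in non-restored and 30.0 to 72.4 CPM in restored *Trp53* wild-type tumors, and at 1.78 to 6.56 and 2.69 to 9.25 CPM in the corresponding *Trp53*-deficient tumors. No library or animal overlapped between the backgrounds, and the share of all genes for which this holds was not counted. *Ephx1* fell by 3.41 (SE 0.51, adjusted p = 0.000678) in non-restored and by 3.48 (SE 0.51, adjusted p = 0.000773) in restored tumors. Of the 8 enzymes that supply P450s with electrons or clear their products, 0 were called higher and 1 lower in the first comparison. In the second, 1 was called higher and 2 lower. Of all genes 0.365% were called higher and 0.219% lower in the first comparison, and 0.182% and 0.19% in the second. In the restored pair *Cyb5r3* rose by 0.84 (SE 0.16, adjusted p = 0.0144). Its adjusted p was 0.0972 without *Trp53*-deficient restored replicate 2 and 0.0717 without replicate 3. The other AHR targets had 0 of 13 called by edgeR and by DESeq2 in either *Trp53* comparison, with 2 and 3 at an unadjusted p under 0.05, where 2430 and 2121 of 13706 genes were.

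**Figure D4:**
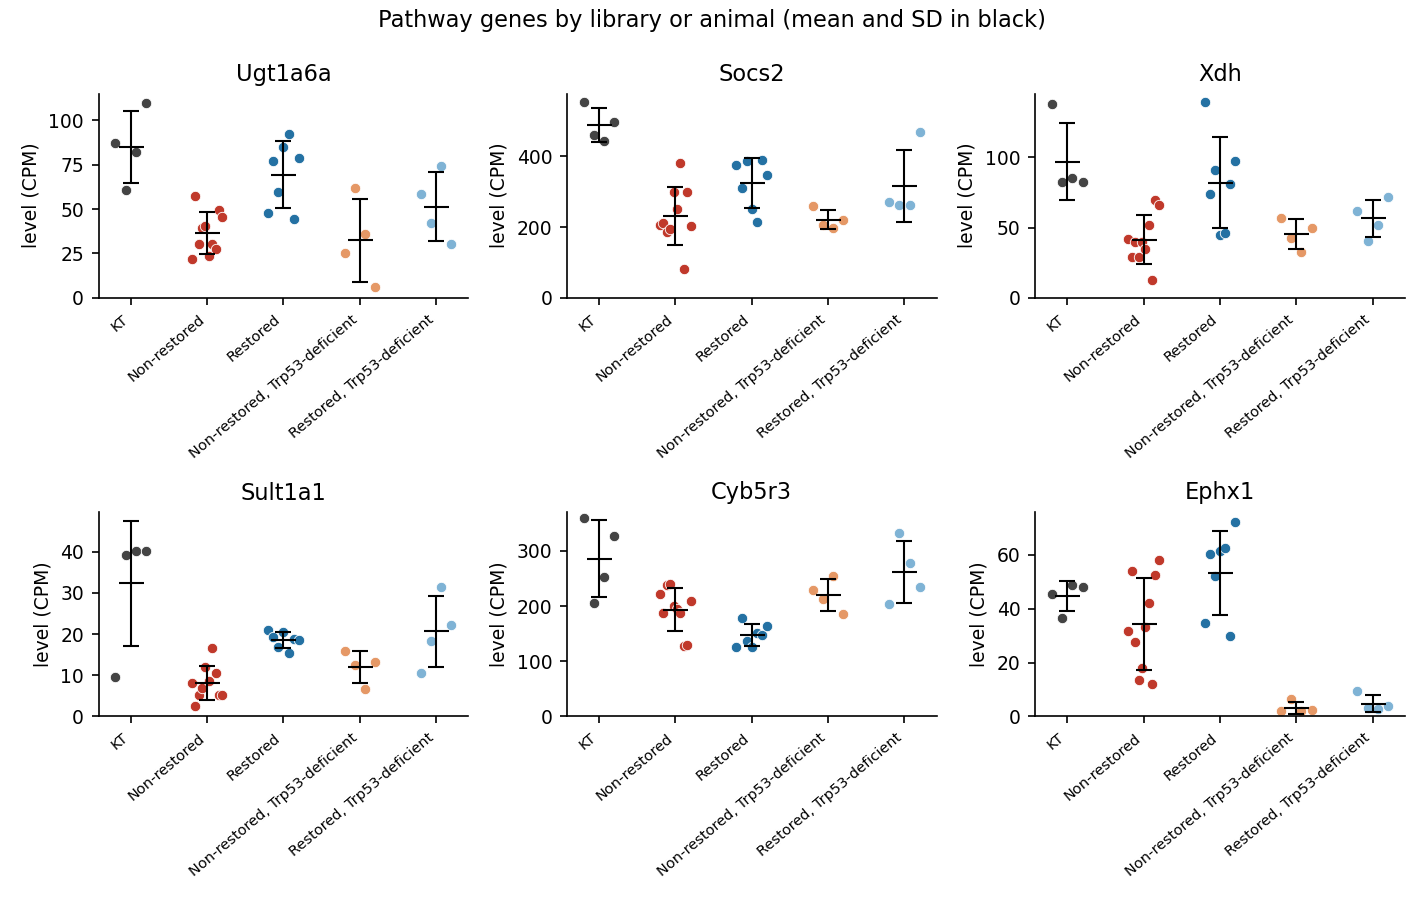
Level in CPM of 6 called pathway genes in each *Trp53* wild-type or restored library and each *Trp53*-deficient non-restored animal, with the mean and SD in black. *Ugt1a6a*, *Socs2* and *Xdh* show no overlap between non-restored and *KT*, a separation not counted over all genes. *Ephx1* is at or below 9.25 CPM in all *Trp53*-deficient tumors.

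The remaining genes of the pathway gave few calls, in 8 comparisons where edgeR called 0% to 5.86% of all genes. In these comparisons 422 to 2626 of the 12516 to 13706 genes tested had an unadjusted p under 0.05. At most 10 genes of each list were tested, so 0 or 1 calls lie near those shares. Of the 10 chaperones and coactivators of AHR, including the *Hsp90* genes, 0 were called by edgeR or DESeq2 in the 8 comparisons, with 0 to 3 at an unadjusted p under 0.05. Their median log2 difference was -0.015 for restored against non-restored tumors. Of 10 tested relatives of AHR and partners of ARNT, such as *Hif1a*, 1 was called in 1 comparison. That was non-restored tumors against *KT*, where 2.38% of all genes were called higher. *Clock*, the circadian factor, was higher in non-restored tumors than in *KT* by 0.43 (SE 0.11, adjusted p = 0.0263), at 128 to 177 CPM against 106 to 126 CPM. Its call was kept in 20 of 27 alternative settings (adjusted p up to 0.339), and the adjusted p was 0.0636, 0.0913 or 0.0665 without *KT* replicate 4, 1 or 2. Among 9 enzymes of tryptophan breakdown, a source of AHR ligands, 2 passed the filter and 0 were called, with *Il4i1* at a log2 difference of 1.88 (SE 0.66, adjusted p = 0.16) for restored against non-restored tumors. Of the P450s in the lung and fatty acid list and in the sterol and retinoid list edgeR called 0 in the 8 comparisons, with at most 3 and 1 at an unadjusted p under 0.05, whereas DESeq2 called *Cyp2b10*, *Cyp4v3*, *Cyp2f2* and *Cyp51* in 1 comparison each.

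Genes whose levels followed *Cyp1b1* most closely over the 29 libraries or animals were led by *Bcl2l15*, a *Bcl2* relative, with r of 0.844. It was followed by *Slc2a3*, the glucose transporter GLUT3, with r of 0.835, then *Arhgap11a* (0.832), *Syngr1* (0.823) and *Col18a1* (0.816). *Slc2a3* was the most like it in range, with a mean of 73.4 CPM in *KT*, 0.195 CPM in non-restored, 0.53 CPM in restored, 0.394 CPM in *Trp53*-deficient non-restored and 2.94 CPM in *Trp53*-deficient restored tumors. *Acot7* (-0.864), *A130050O07Rik* (-0.856) and *Fam174b* (-0.848) ran the opposite way. Among 13272 genes ordered by r, *Arnt* was at 1279 (r of 0.377), *Tiparp* at 1657 (0.335) and *Ahr* at 1926 (0.307). The points share libraries of unequal depth, and the *KT* libraries stand at 1 end of the range. Without *KT* the coefficients of the 5 leading genes were 0.698 to 0.802. Those of the members were 0.5 for *Ahr*, 0.399 for *Tiparp* and 0.348 for *Arnt*, so their order depended on *KT*.

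Genes near *Cyp1b1* gave 1 call. Of 26 tested genes within 2 Mb, 1 was called in non-restored tumors against *KT*, 3.85% beside 5.86% of all genes, and 0 in restored tumors against *KT*. The called gene was *Galm*, galactose mutarotase (17, 80127471 to 80185101), which fell by 0.75 (SE 0.21, adjusted p = 0.0379). Its call was kept in 14 of 27 alternative settings (adjusted p up to 0.387) and lost in 9 of 21 fits without 1 library, with adjusted p of 0.172, 0.109 and 0.0613 without *KT* replicates 1, 4 and 3 and at most 0.0578 without non-restored replicates 1, 3, 4, 5, 7 or 9. The median log2 difference of the 26 was -0.081 for non-restored and 0.063 for restored tumors against *KT*.

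Because *Cyp1b1* is also made by fibroblasts and pericytes, 10 of their markers were summed in each library. The sum was 19.5 to 94 CPM (median 58.9) in *KT*, 8.15 to 463 CPM (146) in non-restored and 32.5 to 317 CPM (220) in restored tumors. All 10 markers were detected in each group. Against *KT*, 0 of the 9 tested were called in non-restored or restored tumors, beside 5.86% and 0.459% of all genes. Their median log2 differences from *KT* were 1.513 and 1.24, with 8 and 9 of the 9 higher. At an unadjusted p under 0.05 there were 2 and 3 markers, beside 2626 and 1333 of 12636 genes. In the *Trp53*-deficient tumors the range was 22.4 to 629 CPM (261) in non-restored and 6.68 to 1690 CPM (197) in restored libraries. For *Trp53*-deficient against *Trp53* wild-type tumors the median log2 difference of the 10 markers was 0.553 in non-restored and 1.445 in restored tumors. Both were in the direction of *Cyp1b1*. In these comparisons 0 of the 10 were called, beside 0.584% and 0.372% of all genes. At an unadjusted p under 0.05 there were 2 and 3 of the 10, beside 2430 and 2121 of 13706 genes. The library with the most stromal marker signal, *Trp53*-deficient restored replicate 1 at 1690 CPM, had 13.8 CPM of *Cyp1b1*, whereas replicate 3 had 99.9 CPM of markers and 49.7 CPM of *Cyp1b1*. Endothelial markers summed to 57.1, 22.7, 83.7 and 2.45 CPM and airway markers to 319, 356, 1310 and 182 CPM in *Trp53*-deficient restored replicates 1 to 4. Replicate 3, with the most *Cyp1b1*, had the highest of both sums in its group, and replicate 4, with 9.35 CPM of *Cyp1b1*, the lowest. The part of other cells in the *KT* and *Trp53* differences of *Cyp1b1* was not tested.

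**Figure D5:**
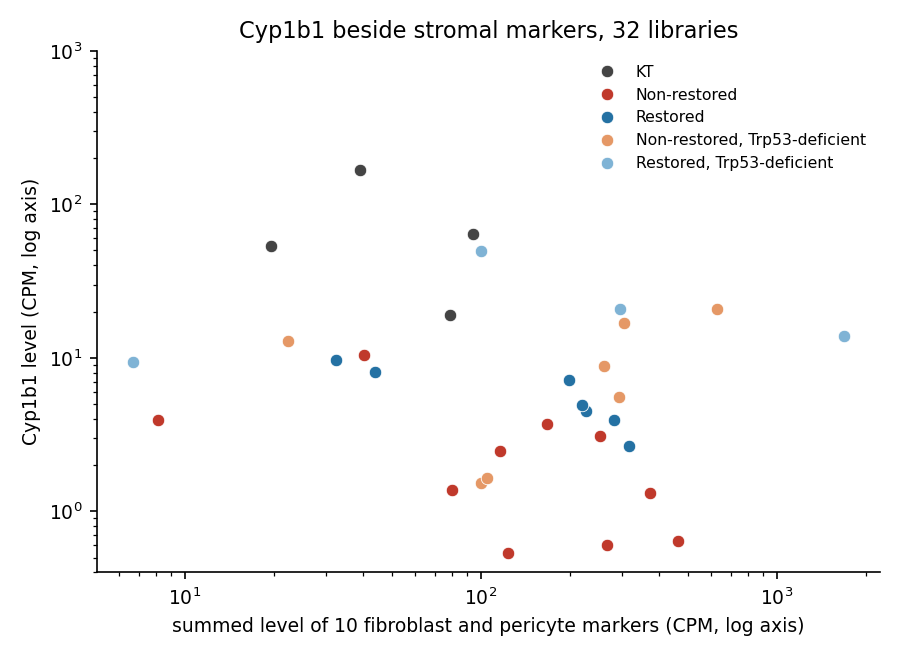
*Cyp1b1* level against the summed level of 10 fibroblast and pericyte markers, both in CPM on log axes, for 32 libraries colored by group. The 4 *KT* libraries have high *Cyp1b1* (19.1 to 166 CPM) with marker sums of 19.5 to 94 CPM, and the library with the highest marker sum has 13.8 CPM of *Cyp1b1*.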

How the data were processed

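RNA of sorted tdTomato-positive tumor cells, negative for CD45, CD31, F4/80 and Ter119, was made into libraries by the authors with a kit that depletes ribosomal RNA, and strand is not stated. The authors aligned read pairs to mm10 with STAR 2.6.1d in its 2-pass mode and quantified genes with RSEM 1.2.30. The deposited expected counts are RSEM estimates per gene, not normalized, of which a mean of 5.57% per library were not whole. The deposited TPM values were scaled by the authors for effective gene length and library size. The deposited effective length is RSEM's, in bases, and served only as an alternative offset. Tables holding the authors' normalized values and DESeq2 1.26.0 comparisons (fold changes and p-values) were not used.

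Expected counts were rounded, filtered with filterByExpr and scaled by TMM. Libraries held 1302482 to 5943951 expected counts, which limits the precision of genes with few counts. edgeR 4.0.16 (with limma 3.58.1 in R 4.3.3) fitted quasi-likelihood models with robust dispersions. A call is a Benjamini-Hochberg adjusted p under 0.05 across every gene in the fit. The 21 *Trp53* wild-type libraries were fitted in 3 groups, or in 4 for the control arms. *Trp53*-deficient non-restored libraries were summed by animal, and a fit of 25 units gave the *Trp53* comparisons and the interaction. Labels do not tie the remaining libraries to mice, and the study counts fewer mice than libraries in 2 groups, so p-values measure spread between libraries that may partly be technical. SE is the absolute log2 difference divided by the square root of F. CPM values are relative to TMM-scaled totals, with a prior count of 2 for logs. *Cyp1b1* alone was also compared by exact permutation. The fits were tested on simulated data.

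Genes named are the 7 members, *Stk11*, up to 3 called genes per list, direction and comparison (or the gene with the smallest unadjusted p), the 5 highest and 3 lowest correlates of *Cyp1b1*, and called neighbours. *Ugt1a6b*, *Ereg*, *Cyp39a1* and markers named singly were added after their values were seen. Some genes that this rule names are not reported here. Members and lists were chosen with earlier results of these data known. Coordinates are from GENCODE M21 (GRCm38) and promoters from RefSeq. Alternatives were DESeq2 1.42.0, its size factors in edgeR, no filter, effective length offsets, female libraries alone, sex as a covariate, a replicate block, each control arm alone, libraries of an animal kept apart, and leaving out each library. Descriptions and figures used Python 3.11.15 (pandas 2.3.3, numpy 2.4.6, matplotlib 3.10.9, scipy 1.17.1).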

Additional observations from a re-analysis of the deposited data

Results flagged for a closer look

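In 20 groups of 4 to 10 libraries or animals, 4 expressed members in 5 groups, 2 samples stood far from the others of their group, and chance alone gives about 1 in 20. *Cyp1b1* in non-restored replicate 4 was 10.4 CPM, and the gap to the next library was 0.662 of the range of the group. This library carries FLPo-ERT2, received vehicle and was female. Without it the restored against non-restored log2 difference of *Cyp1b1* was 1.49 in place of 1.04. *Tiparp* in non-restored replicate 8 was 165 CPM on the scale of the 29 libraries and animals, with a gap of 0.539 of the range. In this library airway markers summed to 6620 CPM, of which *Muc5b* gave 6600 CPM, and the part of this signal in its *Tiparp* level was not tested.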

How the results depend on the processing

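Of the alternative values for the counts of called genes and the *Cyp1b1* results, 451 were taken as unchanged, 53 moved, 4 gained a call and 3 lost one. Unchanged meant the same call, a count within 1.5 times, or, against *KT*, a shift smaller than the spread within groups. Values without a call could change sign and still be taken as unchanged. The *Cyp1b1* difference between restoration effects kept its sign in 15 of 30 alternatives (-0.70 to 0.81). No named called value changed direction. The replicate numbers shared by groups were not taken as pairs in the main fit. Correlations of deviations between same-numbered libraries ran from -0.055 to 0.501, with 6 of 15 above 0.1. The highest was between non-restored and restored replicate 4. Differently numbered libraries were not compared, so pairing was not settled. With the replicate block *Cyp1b1* differed by 0.94 (adjusted p = 0.425) on restoration, and by -4.63 and -3.68 from *KT* in non-restored and restored tumors, with 270, 705 and 67 genes called. DESeq2 called 467 genes for restored against non-restored (edgeR 236), 168 for restored against *KT* (58), 23 for the *Trp53*-deficient restoration (0), 419 and 216 for the *Trp53* comparisons in non-restored and restored tumors (80 and 51) and 12 between control arms (1). The *Cyp1b1* difference by *Trp53* was 2.00 and 1.97 there, and both passed. Female libraries alone gave 132 genes and a *Cyp1b1* difference of -3.32 (-4.70 with all) for non-restored against *KT*, 10 genes for restored against *KT*, 1 for the interaction and 43 for *Trp53* in non-restored tumors, where *Cyp1b1* differed by 1.13 (SE 0.69, adjusted p = 0.53), with exact permutation p of 0.0868 for *Cyp1b1* on restoration and 0.111 on *Trp53* in non-restored tumors. Tamoxifen controls alone gave 50 genes for restoration, and vehicle controls alone an exact *Cyp1b1* p of 0.0711. For the *Trp53*-deficient restoration there were 3 calls with no filter, 1 with effective length offsets and 1 with libraries of an animal kept apart. Between control arms there were 0 with no filter and 0 with sex as a covariate. The cause of these differences was not tested.

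Leaving out each library gave 145 to 319 genes for restoration (fewest without restored replicate 7, with replicates 1 and 2 close, most without non-restored replicate 8), 340 to 951 for non-restored against *KT* and 21 to 96 for restored against *KT* (fewest without *KT* replicate 1), 0 to 1 for the interaction and the control arms, 32 to 1448 for *Trp53* in non-restored tumors (most without non-restored replicate 8) and 25 to 153 for *Trp53* in restored tumors (fewest without *Trp53*-deficient restored replicate 3). Without *Trp53*-deficient animals 1 to 4 in turn the count for non-restored tumors was 26, 162, 50 and 27. Without animal 3 there was 1 call for the *Trp53*-deficient restoration and without animal 2 there was 1 for the interaction. The *Cyp1b1* difference by *Trp53* in non-restored tumors was 1.83 to 2.44 without a *Trp53* wild-type library and at least 1.72 without an animal, and *Tiparp* passed in that comparison without non-restored replicate 8 (0.48, adjusted p = 0.0288). Shallow libraries limit the silent members to statements above 0.516 to 2.49 CPM.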
